A study of Mus musculus with 3 samples.

Results

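Slow-twitch muscle fibres build their sarcomeres from their own set of proteins, and 10 of the genes that encode or accompany that set were followed here: Myh7, Myl2, Myl3, Tnnc1, Tnni1, Tnnt1, Tpm3, Myoz2, Mb and Csrp3. They were taken by symbol from the platform's probe annotation, and all 10 were found, on 17 probe sets, among 11092 genes compared. The tissue was gastrocnemius, a calf muscle made largely of fast-twitch fibres, and each group was 1 Affymetrix Mouse 430 2.0 array hybridised with RNA pooled from 3 to 4 mice. The groups were tamoxifen for 48 h, tamoxifen for 24 h and oil for 24 h, the oil being the control. All mice, controls included, were of the strain C57BL/CD1 and carried the genotype Akt_Cre transgenic. Per the labels this is a fusion of the kinase Akt with an oestrogen-binding domain, made in skeletal muscle only, which tamoxifen stabilises so that the muscle enlarges. The promoter that drives the fusion and any role of a Cre recombinase are not given in the sources used here. No array of oil for 48 h and none of tamoxifen in mice without the fusion was analysed here, so time and treatment at 48 h cannot be told apart, nor can the actions of tamoxifen and of Akt.

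In a sarcomere, myosin motors of the thick filament pull on actin of the thin filament when calcium binds the troponin complex and tropomyosin moves aside. Slow and fast fibres use different paralogs of most of these proteins, and slow fibres contract more slowly, resist fatigue and rely on oxygen. Akt lies in the insulin and IGF1 pathway, which drives muscle growth. Several of the 10 genes are also those of heart ventricle, since heart and slow skeletal fibres share these isoforms.

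The arrays read as skeletal muscle with a strong fast-fibre signal. Values are scaled intensities in arbitrary units unless stated, given in the order tamoxifen 48 h, tamoxifen 24 h and oil. Muscle creatine kinase (Ckm) read 9571, 9195 and 9684, and the fast myosin Myh4 read 8655, 8716 and 8489. All 6 heart-muscle markers fixed for the check (Myh6, Tnni3, Myl7, Nppa, Mybpc3 and Ryr2) fell short of the filter on low values, and their summed intensity was 40.8, 36.2 and 44.4. The sum for the 10 slow-fibre genes was 17325, 20182 and 19257. Pairs of arrays correlated at r = 0.967 between both tamoxifen arrays, 0.955 between tamoxifen 24 h and oil, and 0.954 between tamoxifen 48 h and oil, over the log2 values of 21804 kept probe sets.

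The promoters of the 4 genes that differed by 1.5-fold or more at 48 h in either comparison are printed to show what lies just before their starts. The sequences are RefSeq's for GRCm38.p6, run 5′ to 3′ on the gene's own strand from 250 bases before the annotated start to 50 after it, and take the most upstream annotated start. Myh7, Tpm3 and Tnni1 each had another annotated start downstream, whose window is not printed. Capitals mark E-boxes (CANNTG, the same on either strand), the letters bound by myogenic factors such as MyoD. Myh7 lies at chr14:54994577-54994876 on the minus strand, Tpm3 at chr3:90072401-90072700, Tnnc1 at chr14:31208062-31208361 and Tnni1 at chr1:135799171-135799470, the last 3 on the plus strand.
Myh7: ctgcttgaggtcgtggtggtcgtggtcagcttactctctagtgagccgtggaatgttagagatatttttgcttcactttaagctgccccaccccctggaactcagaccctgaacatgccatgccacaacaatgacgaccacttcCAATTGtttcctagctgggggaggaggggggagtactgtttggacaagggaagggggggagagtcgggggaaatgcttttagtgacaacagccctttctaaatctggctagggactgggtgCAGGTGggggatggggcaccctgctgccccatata
Tpm3: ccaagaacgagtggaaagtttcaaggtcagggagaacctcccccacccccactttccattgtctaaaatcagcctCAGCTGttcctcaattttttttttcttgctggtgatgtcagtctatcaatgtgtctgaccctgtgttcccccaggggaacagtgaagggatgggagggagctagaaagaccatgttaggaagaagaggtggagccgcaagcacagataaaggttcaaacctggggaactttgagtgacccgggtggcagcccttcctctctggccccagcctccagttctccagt
Tnnc1: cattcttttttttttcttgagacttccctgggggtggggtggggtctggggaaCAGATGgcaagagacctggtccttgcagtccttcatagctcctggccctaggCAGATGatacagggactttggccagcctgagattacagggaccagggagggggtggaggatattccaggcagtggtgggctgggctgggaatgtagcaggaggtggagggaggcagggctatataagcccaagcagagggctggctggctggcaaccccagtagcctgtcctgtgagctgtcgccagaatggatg
Tnni1: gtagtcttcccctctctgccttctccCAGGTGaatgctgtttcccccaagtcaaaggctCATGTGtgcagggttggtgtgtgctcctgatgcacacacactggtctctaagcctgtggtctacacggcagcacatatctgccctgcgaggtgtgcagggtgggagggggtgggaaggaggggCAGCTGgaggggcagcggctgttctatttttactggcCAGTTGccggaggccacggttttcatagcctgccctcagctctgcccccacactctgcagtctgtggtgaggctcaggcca

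RefSeq's table held 17 such windows for the 10 genes, some of them overlapping, and all 17 had an E-box, against 72.3% of 32851 mouse windows of the same length. The MCAT letters CATTCC, bound by TEAD factors, were found on either strand in 3 of the 17 windows (17.6%, against 14.7% of all windows), in Myh7, Tnnc1 and Myl3. The NFAT core GGAAA was in 11 of 17 windows, or 64.7%, against 61.3% of all windows. A strict MEF2 box was in 1 window, that of Myoz2 (5.88% against 3.19%), and a CArG box in 1, that of Myl3 (5.88% against 1.63%). The TATA letters TATAAA were in 2 windows, of Myl2 and Tnnt1 (11.8% against 13.6%). All of these motifs were sought on either strand. In Myl2 the TATA letters lay on the opposite strand, at base 35 of the window, and in Tnnt1 on the gene's own strand. Other TATA-like letters were not sought, so the remaining windows are not shown to lack a TATA box. The MCAT and NFAT shares were near those of all windows, and the E-box share was above that of all windows, with several windows of the same gene counted separately. By gene, an E-box was found in 10 of the 10 slow-fibre genes and in 6 of 8 fast counterparts with a window. MCAT letters were found in 3 of 10 and 4 of 8. These matches describe letters in a window and do not show binding.

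Of the 17 probe sets, 16 passed the filter, which kept those of mean percentile rank 50 or more on the 3 arrays. A dim Mb probe set (1422420_at), at or below 2.08 on every array and so under the floor of 4.05, was left out. Another 2 probe sets, annotated to Myh7 together with a further gene, were not used. Each gene was read on the kept probe set that ranked highest on average. These readings ranked between the 95.7th and the 99.96th percentile, so none of the 10 genes was near the floor. With 1 array a group there is no replicate error and no test, so every ratio below describes these arrays only. In such bulk RNA, fewer slow fibres and less RNA per slow fibre cannot be told apart.

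Across the 10 genes, the tamoxifen 48 h array read lowest of the 3 in 8, whereas it was lowest in 34.5% of all genes and in 29.3% of the 1357 genes of mean percentile rank 95 or more. The exceptions were Mb and Myl3. Under other scalings and filters the 48 h array was lowest in 7 to 9 of the 10, with Tnnt1 the gene that left the count when arrays were scaled on all probe sets. The tamoxifen 24 h array read highest of the 3 in 6 genes, a count that ran from 5 to 10 with the scaling and filter. It reached 10 only with arrays scaled on all probe sets or with no filter. There the median of all genes at 24 h against oil was itself 0.33 or 0.19. The share of all genes highest at 24 h was not counted, so nothing stands beside this count. The median log2 ratio of the 10 genes was -0.41 for tamoxifen 48 h against oil, 0.09 for tamoxifen 24 h against oil and -0.36 for tamoxifen 48 h against tamoxifen 24 h. The medians of all 11092 genes were 0.01, 0.04 and -0.02, and those of the 1357 bright genes 0.08, 0.09 and -0.01. Both ratios to oil share the oil array, and both ratios of the 48 h array share that array.

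**Figure D1:**
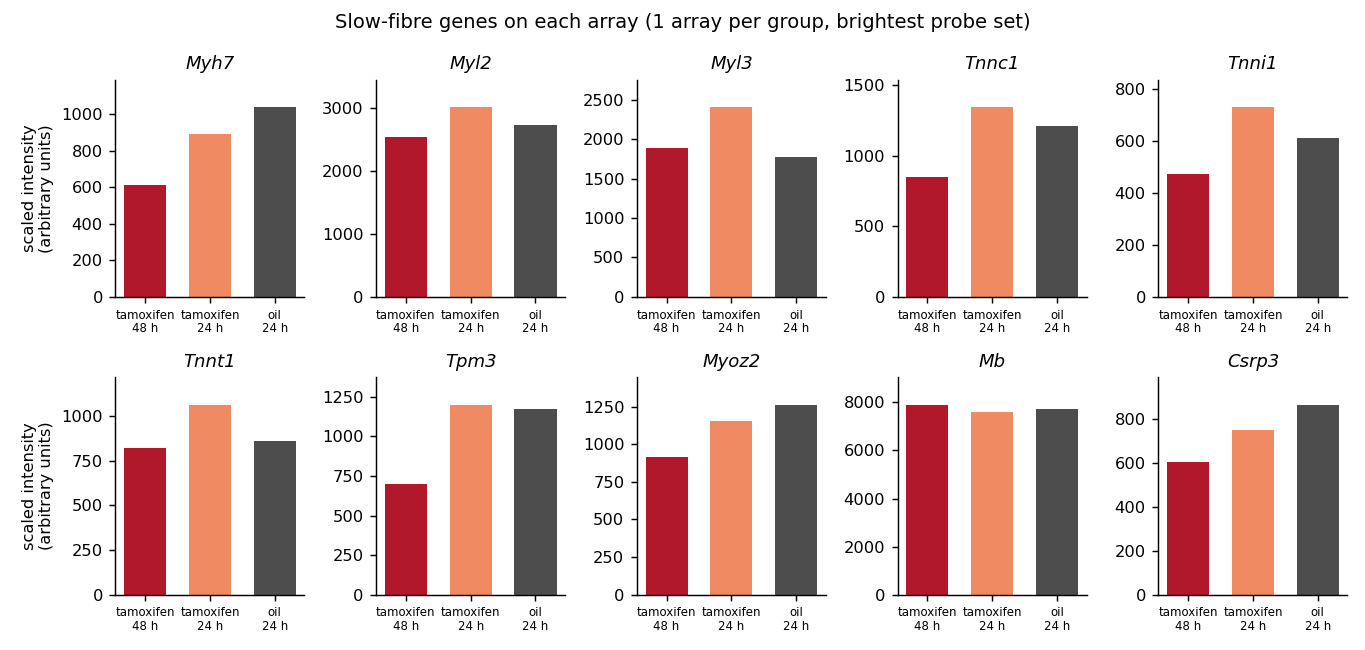
Scaled intensity (arbitrary units, linear axis from 0) of each slow-fibre gene on its brightest probe set; each bar is 1 array of pooled RNA, from left to right tamoxifen 48 h, tamoxifen 24 h and oil 24 h. The 48 h bar is the lowest in 8 of the 10 panels, and in the Mb panel the bars lie between 7609 and 7911.

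The thick-filament genes differed in size of change. Myh7, the slow (beta) myosin heavy chain and the motor of slow fibres, had 1 probe set (1448553_at), which read 614 on tamoxifen 48 h, 894 on tamoxifen 24 h and 1041 on oil. It was 1.70-fold lower at 48 h than on oil (log2 ratio -0.76) and 1.46-fold lower at 48 h than at 24 h, while at 24 h it was 1.16-fold lower than on oil. Its lowest reading was at 48 h and its highest on oil. Myl2, the slow regulatory light chain that binds the myosin neck (1448394_at), read 2544 at 48 h, 3022 at 24 h and 2735 on oil. Its 48 h reading was 1.19-fold below that at 24 h and 1.07-fold below oil, so its range was narrower than that of Myh7.

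Myl3, the slow essential light chain, was the only thick-filament gene with several kept probe sets, 3 in all. The brightest (1427768_s_at) read 1890.4 at 48 h, 2409 at 24 h and 1771 on oil. The others read 1215, 1839 and 1354 (1428266_at) and 818, 1248 and 663 (1427769_x_at), in the same order. All 3 had their highest reading at 24 h, with log2 ratios to oil of 0.44, 0.44 and 0.91. All 3 were lower at 48 h than at 24 h, by 1.27-fold, 1.51-fold and 1.52-fold. Against oil at 48 h they did not share a sign, at log2 ratios of 0.09, -0.16 and 0.30. In the manufacturer's naming, the suffixes _s and _x mark probe sets that can match transcripts of more than their own gene.

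The 3 slow troponin subunits had 1 probe set each and followed the same order of arrays. Tnnc1, the calcium-binding subunit of slow and cardiac muscle (1418370_at), read 851 at 48 h, 1346 at 24 h and 1207 on oil. Its 48 h reading was 1.58-fold below 24 h and 1.42-fold below oil. Tnni1, the slow inhibitory subunit (1450813_a_at), read 473 at 48 h, 731 at 24 h and 609.9 on oil, which is 1.54-fold lower at 48 h than at 24 h and 1.29-fold lower than on oil. Tnnt1, the slow subunit that ties the complex to tropomyosin (1419606_a_at), read 819 at 48 h, 1065 at 24 h and 860.2 on oil. At 48 h it was 1.30-fold below 24 h and only 1.05-fold below oil. In all 3 the tamoxifen 24 h array was the highest, at log2 ratios to oil of 0.16 for Tnnc1, 0.26 for Tnni1 and 0.31 for Tnnt1.

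Tpm3 encodes the slow-fibre tropomyosin and, through other promoters and exons, tropomyosins of many cell types. Its brightest probe set (1449996_a_at) read 698 at 48 h, 1201 at 24 h and 1173 on oil, 1.72-fold lower at 48 h than at 24 h and 1.68-fold lower than on oil. The next (1449997_at) read 564, 982 and 1069.8, which was 1.74-fold and 1.90-fold lower. Both gave similar ratios, and the 3 dimmer probe sets did not follow them. At 48 h against 24 h, 1427260_a_at had a log2 ratio of 0.02 (263 and 258), 1427567_a_at one of 0.00 (96.5 and 96.4) and 1436958_x_at one of 1.16 (48.9 and 21.9). Against oil at 48 h the same 3 were at -0.40, -0.21 and 0.54. Which Tpm3 transcripts each probe set reads was not tested.

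**Figure D2:**
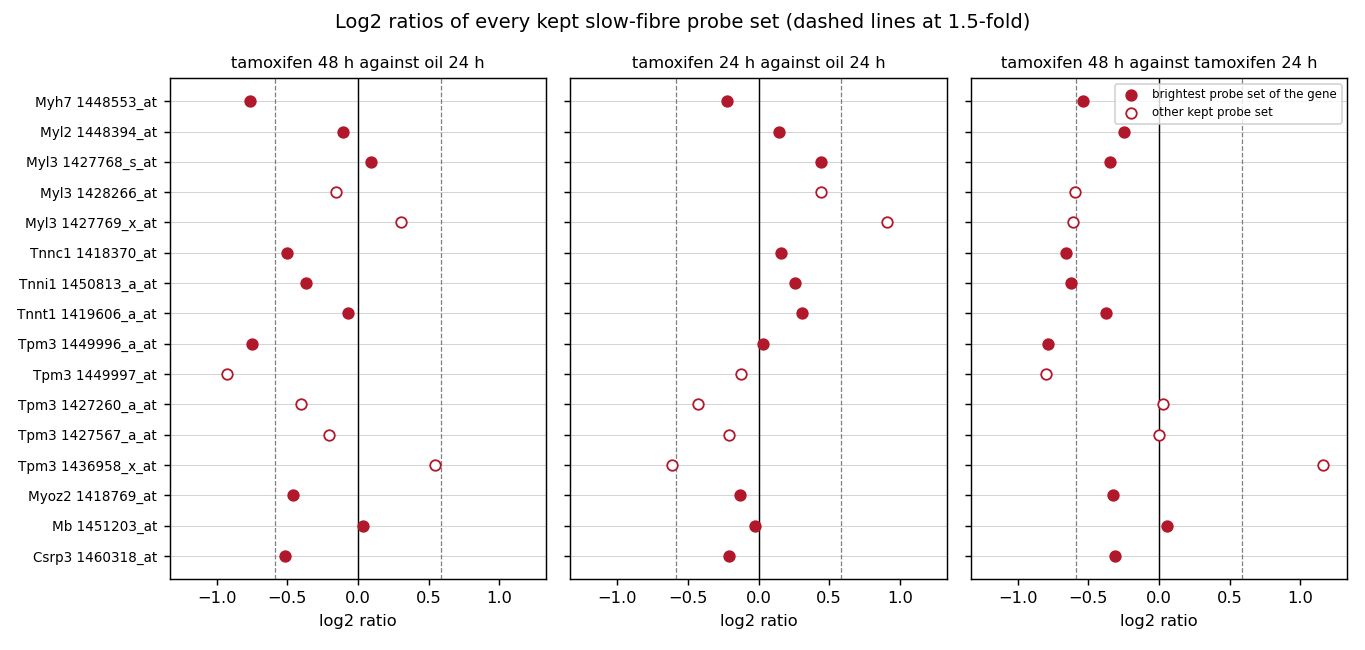
Log2 ratios of the 16 kept probe sets (rows) in 3 comparisons (panels), with filled points for the probe set that represents the gene, open points for its others and dashed lines at 1.5-fold. In the panel of tamoxifen 48 h against tamoxifen 24 h, 12 of the 16 points lie below 0; the others are 3 probe sets of Tpm3 and 1 of Mb.

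The Z-disc genes, whose proteins sit where thin filaments of neighbouring sarcomeres are anchored, read lowest at 48 h. Myoz2 (calsarcin-1), a Z-disc protein of slow and cardiac muscle that binds calcineurin (1418769_at), read 918 at 48 h, 1154 at 24 h and 1265 on oil. Csrp3, the muscle LIM protein linked to stretch sensing (1460318_at), read 605 at 48 h, 751 at 24 h and 866 on oil. The 48 h readings were 1.38-fold below oil for Myoz2 and 1.43-fold below for Csrp3, and 1.26-fold and 1.24-fold below 24 h. Like Myh7, both also read lower at 24 h than on oil, by 1.10-fold and 1.15-fold. With arrays scaled on all probe sets all 3 read above oil at 24 h, at log2 ratios of 0.16 for Myoz2, 0.085 for Csrp3 and 0.071 for Myh7. The median of all genes was then 0.33, and all 3 stayed below it.

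Mb encodes myoglobin, the oxygen-binding protein of oxidative fibres, which mouse fast oxidative fibres make as well. Its kept probe set (1451203_at) read 7911 at 48 h, 7609 at 24 h and 7730.2 on oil, with log2 ratios of 0.03 for 48 h against oil, -0.02 for 24 h against oil and 0.06 for 48 h against 24 h. It was the only one of the 10 genes above 0 in the last comparison, and was below 0 there with the deposited values unscaled, at -0.10, or scaled on all probe sets, at -0.16. The medians of all genes were then -0.18 and -0.24, and Mb stayed above them. Mb is also the brightest of the 10 genes, at percentile 99.96. At that level ratios were small in general: the 33 genes of percentile 99.9 or more had a standard deviation across genes of 0.07 in the log2 ratio of 48 h against 24 h, compared with 0.28 for 1122 genes between percentiles 95 and 99. Whether so bright a probe set could show a change was not tested.

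The sizes can be set beside those of all genes. For tamoxifen 48 h against oil, 2 of the 10 genes (Myh7 and Tpm3) were 1.5-fold or more lower and none was that much higher, while of all genes 10.7% were lower and 11.7% higher by that size. Of the bright genes, 4.42% were lower and 8.92% higher. For tamoxifen 48 h against tamoxifen 24 h, 3 of the 10 (Tpm3, Tnnc1 and Tnni1) were 1.5-fold or more lower and none higher, against 5.84% lower and 6.91% higher of all genes and 2.14% and 1.92% of the bright genes. For tamoxifen 24 h against oil none passed in either direction, where 9.02% of all genes were lower and 9.57% higher, or 2.58% and 7.52% of the bright genes. None of the 10 reached 2-fold in any comparison. That size was reached at 24 h against oil by 2.48% of all genes (lower) and 2.35% (higher), at 48 h against oil by 2.71% and 3.72%, and at 48 h against 24 h by 1.42% and 1.8%. Only Tpm3 was 1.5-fold or more below both other arrays at 48 h, as were 3.07% of all genes.

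By sign alone, 8 of the 10 were below 0 at 48 h against oil (49.4% of all genes, 40.8% of bright genes), 4 at 24 h against oil (46% and 35.7%) and 9 at 48 h against 24 h (53.1% and 52.2%). The 10 log2 ratios at 48 h against oil ran from -0.76 (Myh7) to 0.09 (Myl3), and the middle 95% of bright genes from -0.75 to 1.02. At 48 h against 24 h they ran from -0.78 (Tpm3) to 0.06 (Mb), and the middle 95% of bright genes from -0.56 to 0.54. At 24 h against oil they ran from -0.22 (Myh7) to 0.44 (Myl3), within the -0.59 to 0.90 of bright genes.

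The fast paralogs give a comparison within the same pair of arrays that does not depend on the scaling factor of an array. In 8 pairs, the log2 ratio of the fast counterpart was subtracted from that of the slow gene. At 48 h against 24 h all 8 differences were below 0, with a median of -0.48 (7 of 8 when each gene was read on its dimmest kept probe set). They were -0.80 for Tpm3 and Tpm1, -0.67 for Tnnc1 and Tnnc2, -0.63 for Tnni1 and Tnni2, and -0.53 for Myh7 and Myh4. The others were -0.43 for Tnnt1 and Tnnt3, -0.38 for Myl3 and Myl1, -0.29 for Myl2 and Mylpf, and -0.20 for Myoz2 and Myoz1. At 48 h against oil 7 of 8 were below 0, the exception being Myl3 and Myl1 at 0.07, and the median was -0.39. With each gene read on its dimmest kept probe set, 6 of 8 were below 0 in that comparison. At 24 h against oil 2 of 8 were below 0 (Myh7 at -0.26 and Myoz2 at -0.24) and the median was 0.20.

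On their brightest probe sets the fast counterparts stayed close to 0. All 11, which also included Myh1, Myh2 and Tpm2, were within 1.5-fold there in the 3 comparisons. Other kept probe sets passed that size. At 48 h against oil these reached log2 ratios of 1.499 for Myh1 and 0.88 for Tpm2. At 24 h against oil they reached 0.89 for Myh1 and -0.68 for Myh4, and at 48 h against 24 h 0.62 for Tpm1 and 0.61 for Myh1. On the brightest probe sets the log2 ratios of the 11 ran from -0.13 (Myoz1) to 0.31 (Tpm2) at 48 h against 24 h, with a median of 0.02. Next highest there was Myh1 at 0.09. Whether Tpm2 is particular to fast fibres was not tested, and it is in none of the 8 pairs. At 48 h against oil the 11 ratios ran from -0.18 (Myh1) to 0.30 (Myh2), with a median of -0.02. Myh2, the myosin of fast oxidative fibres, read 4688 at 48 h, 4672 at 24 h and 3817 on oil. The fast counterparts were far brighter than most of the slow genes: their readings lay between 3817 and 11388, and 8 of the 11 ranked at percentile 99.9 or more, where ratios varied little between genes as given for Mb. Of the slow genes 8 ranked between percentiles 95 and 99. The part of this difference in level in the slow-minus-fast differences was not tested.

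**Figure D3:**
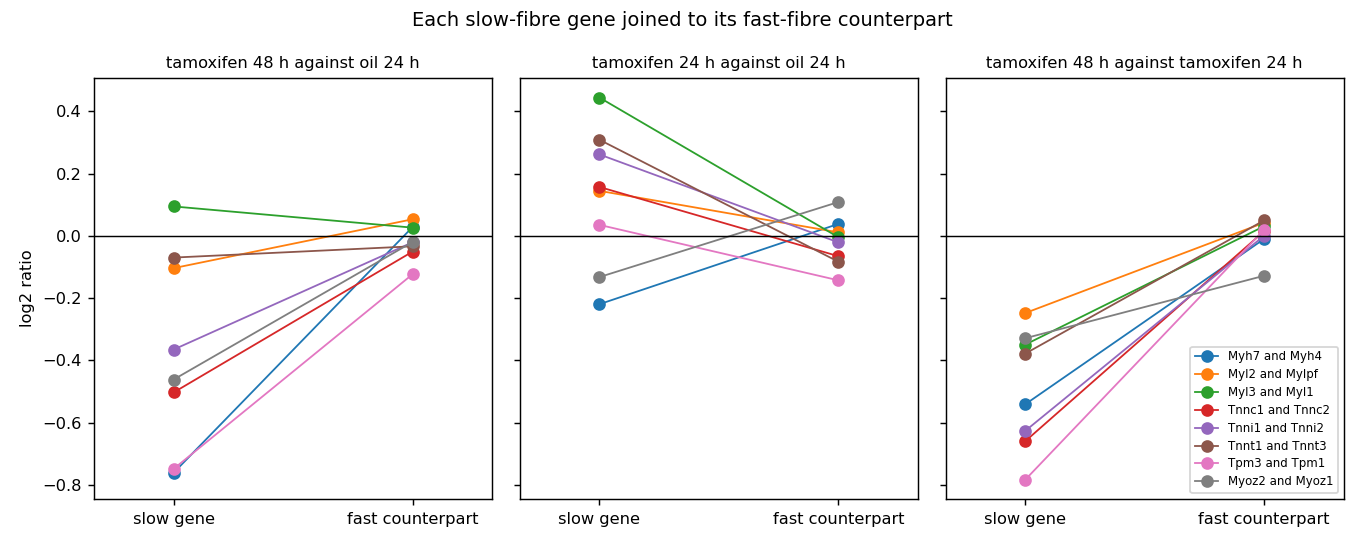
Log2 ratios of 8 slow-fibre genes (left in each panel) joined to their fast-fibre counterparts (right), for 3 comparisons of single arrays. In the panel of tamoxifen 48 h against tamoxifen 24 h, all 8 lines climb from the slow gene to the counterpart, and the slow genes lie between -0.78 and -0.25.

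Slow-fibre genes beyond the 10 did not follow a common course. Of 10 further genes listed, 8 passed the filter, and at 48 h against oil 6 of these were below 0, with a median log2 ratio of -0.27, 1 being 1.5-fold or more lower and 2 higher. Casq2, the calcium store protein of slow and cardiac sarcoplasmic reticulum, read 471 at 48 h, 221 at 24 h and 187.1 on oil, 2.52-fold higher at 48 h than on oil. Fabp3, the fatty acid carrier of oxidative muscle, read 5401, 4487 and 2672, 2.02-fold higher. Sln, the calcium pump inhibitor sarcolipin, read 28.8 at 48 h, 196 at 24 h and 48.6 on oil. Ankrd2, a stretch-linked titin-binding protein of slow fibres, read 343, 462 and 487, in the direction of the 10 genes. Other fast-fibre genes, 7 in all, had a median of 0.04 at 48 h against both oil and 24 h. The highest of these at 48 h against oil, Myoz3, a fast-fibre relative of Myoz2, had a log2 ratio of 0.62, and the lowest, Mylk2, the skeletal myosin light chain kinase, one of -0.43. Casq1, the fast-fibre calsequestrin, was at 0.38, and Actn3, the alpha-actinin of fast Z-discs, at -0.12.

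Among 8 other Z-disc genes the median was -0.06 at 48 h against oil and 0.09 against 24 h. Tcap, the titin cap that binds Csrp3's protein, read 3439 at 48 h, 4196 at 24 h and 6349 on oil, 1.85-fold lower at 48 h than on oil, and was the only one 1.5-fold or more lower. Fhl1 read 3666, 3960.5 and 5132 (another kept probe set had a log2 ratio of -1.68 at 48 h against oil), Ldb3 6045, 5541 and 4441, and Nrap 1290.2, 1104 and 1673. Embryonic and cardiac sarcomere genes went separate ways at 48 h against oil. Actc1, cardiac actin, had a log2 ratio of 2.17, Myh3, embryonic myosin, one of -0.83 at readings of 25.9 or less, Myh8, perinatal myosin, 0.18, and Tnnt2, cardiac troponin T, -0.13.

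Of 25 regulators of fibre type listed, 23 passed the filter, 2 were 1.5-fold or more lower and 3 higher at 48 h against oil, and the median was 0.07. Mef2c, a transcription factor that drives slow-fibre genes, read 2602 at 48 h, 2021 at 24 h and 1421 on oil, 1.83-fold higher at 48 h than on oil, and its 5 kept probe sets ranged from 0.61 to 1.20 in log2. Hdac5, which represses MEF2 factors, read 106 at 48 h, 114 at 24 h and 178 on oil. Nfatc2 and Nfatc4, of the calcineurin-controlled NFAT family, were at log2 ratios of 0.73 and -0.72 at 48 h against oil, and other kept probe sets of Nfatc2 reached -0.56. Genes of this list thus lay on either side of 0.

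**Figure D4:**
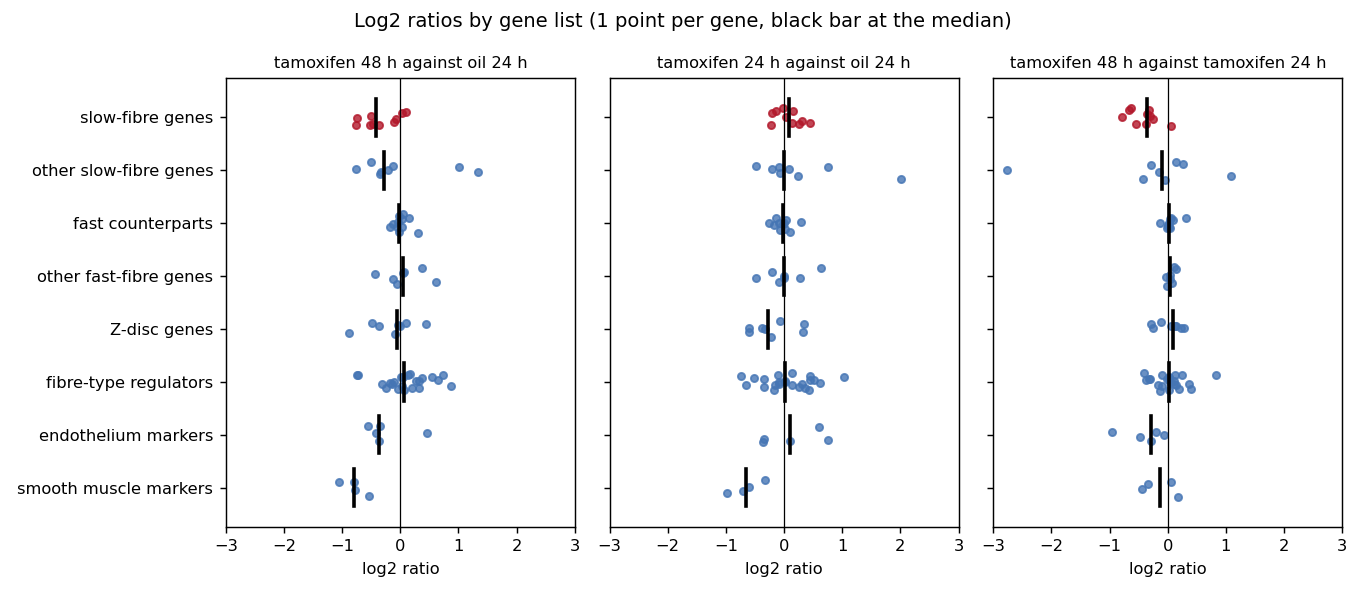
Log2 ratios of the slow-fibre genes (top row) and of 7 further gene lists, 1 point per gene with a black bar at the median, in 3 comparisons of single arrays. At 48 h against 24 h the medians are -0.36 for the slow-fibre genes and 0.02 for the fast counterparts.

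Markers of other cells in the muscle were read on the same arrays. The 4 smooth muscle markers were all below 0 in both comparisons with oil: their summed intensity was 1240 at 48 h, 1247 at 24 h and 2172 on oil. Acta2, smooth muscle actin, read 892, 788 and 1553, Tagln 255, 348 and 438, Myh11 74.8, 94.5 and 154.7, and Cnn1 17.8, 17.0 and 25.8. The 5 endothelium markers summed to 673 at 48 h, 852 at 24 h and 846 on oil, and the brightest probe sets of all 5 were below 0 at 48 h against 24 h, from a log2 ratio of -0.96 (Cdh5) to one of -0.06 (Tek). The 2 kept probe sets of Cdh5 were opposed there, and the other read a log2 ratio of 0.46. Adipocyte markers summed to 521, 768 and 605 over the 3 of 4 that had a probe set, satellite cell markers to 449, 373 and 294 (4 of 4), fibroblast markers to 10326, 10069 and 10977 (5 of 5), macrophage markers to 1102, 1200.0 and 1250.3 (5 of 5) and Schwann cell markers to 1132, 1124 and 1306 (2 of 4). Markers within a list could go opposite ways, which a sum does not show. At 48 h against oil 2 of 4 satellite cell markers were below 0, as were 3 of 5 fibroblast, 3 of 5 macrophage and 1 of 2 kept adipocyte markers. There Cdh15 (satellite cell) was 3.46-fold higher, Col1a1 (fibroblast) 2.26-fold higher and Cd163 (macrophage) 2.10-fold lower. The part of all these cell types in the slow-fibre readings was not tested. The fibre genes Ckm, Acta1, Ttn, Myh4 and Pvalb summed to 41070, 39063 and 41178.

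Many genes shared the median course of the 10 genes, which was 0.18 (log2) above each gene's own mean on tamoxifen 24 h, 0.08 above on oil and 0.27 below on tamoxifen 48 h. By Euclidean distance over the 3 arrays, the nearest of 6750 other genes of mean percentile rank 75 or more were Mpp5, Phc3, Dcaf4, Neo1 and Vrk3, at distances of 0.0093 to 0.015. Their log2 ratios at 48 h against oil lay between -0.35 and -0.33. As many as 844 of the 6750 were nearer to that course than the median member, at 0.21, so over 3 arrays the pattern is common.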

How the data were processed

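Gene expression was measured on 3 Affymetrix Mouse 430 2.0 arrays, 1 per group. The deposited values were linear intensities, 1 per probe set and array, which the authors made from the scans. Summary method, background correction and scaling are not given in the sources used here. The deposited medians were 13.8 (tamoxifen 48 h), 13.2 (tamoxifen 24 h) and 15.2 (oil), and no detection calls were used.

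The table held 45101 probe sets, and the 64 control probe sets of the maker were left out. The platform annotation gave 1 gene to 34945, several to 932 (unnamed here) and did not list 9160. Symbols were updated through Entrez identifiers to RefSeq's GRCm38.p6 table. Probe sets of mean percentile rank 0.5 or more were kept, the arrays scaled to equal medians over them (factors 1.05, 0.944 and 1.01 in the order above), a floor set at the 25th percentile of scaled values (4.05), and log2 taken. A gene was read on the kept probe set that ranked highest on average. With 1 array a group no test was possible, and precision is limited by the number of arrays; sizes of 1.5-fold and 2-fold stand in for calls.

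The 10 genes, the other lists, the pairs and the sizes were chosen with earlier results of these data known. The text names every one of the 10 genes and of their fast counterparts, up to 4 genes of each other list by size of change at 48 h against oil, the defining muscle markers, and the 5 genes nearest in pattern; Cdh5 was named after its value was seen. A gene of the regulator list is not reported here. The calculation was tested on simulated data. Python 3.11.15, pandas 2.3.3 and, for loess, limma 3.58.1 were used. Alternatives covered scaling, filter, floor, choice of probe set and members.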

Additional observations from a re-analysis of the deposited data

How the results depend on the processing

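No paired analysis was possible because each group is 1 array. In 15 alternatives, the median log2 ratio of the 10 genes stayed below 0 at 48 h against oil (-0.53 to -0.23) and at 48 h against 24 h (-0.58 to -0.34). The slow-minus-fast medians came out identical under 7 of the 14 alternatives run on them, among them no scaling and every rank filter, so those 7 say nothing about their stability. Under the other 7 they ran from -0.48 to -0.21 at 48 h against oil and from -0.53 to -0.42 at 48 h against 24 h. One of the 7, leaving out Tpm3 and its counterpart, was chosen after seeing the data and gave -0.34 and -0.43. At 24 h against oil the median of the 10 genes changed sign with the setting. The slow-minus-fast median there stayed above 0 under every setting, at 0.089 to 0.31 where it changed. A difference under 0.1 in log2 was counted as unmoved. The share of all genes past 1.5-fold was counted only with the main settings. Counts of the 10 genes past that size under the alternatives, given below, therefore have no such share beside them and cannot be set against the shares above.

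With arrays scaled on all probe sets, or with no filter, the medians were 0.38 at 24 h against oil and -0.58 at 48 h against 24 h, with 2 genes 1.5-fold or more higher at 24 h and 5 lower at 48 h against 24 h; the first of these scalings moved the median of all genes to 0.33 and -0.24, from which the 10 genes differed by 0.05 and -0.34, as with the scaling reported. Unscaled, the 48 h against 24 h median was -0.52. With rank 0.25 or more, the 24 h against oil median was 0.22. With rank 0.95 or more it was -0.043, the 48 h against oil median was -0.53, and 4 genes were 1.5-fold or more lower there. Quantile normalization gave a slow-minus-fast median of 0.089 at 24 h against oil.

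With the mean of all kept probe sets, 1 gene was 1.5-fold or more higher at 24 h against oil. At 48 h against oil 1 gene was that much lower, and the slow-minus-fast median was -0.27. With each gene's dimmest kept probe set, the slow-minus-fast medians were 0.31 at 24 h and -0.21 at 48 h against oil. The 48 h against oil median of the slow-fibre genes was -0.23. By 1.5-fold or more, 1 gene was higher and 1 lower at 24 h against oil, and 1 was lower at 48 h against oil. At 48 h against 24 h, 1 was that much higher and 3 lower. Tpm3 then turned to 0.54 at 48 h against oil and 1.16 against 24 h. With probe sets of suffix _s, _x or _a left out, 8 genes remained and the 24 h against oil median was -0.073. Of 384 values of single genes under the alternatives, 353 kept their sign. Many of the 384 could not change, so this count says little about stability. The higher floor moved none of them, and the choice of probe set moved none for genes with 1 kept probe set. The cause of the shifts under the alternatives was not tested, apart from the scaling factors themselves.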
